A study of Mus musculus with 30 samples.

Results

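RNA-Seq of the extensor digitorum longus (EDL), a fast-twitch muscle of the hind limb, was compared between OVA-immunized and unimmunized (Ctrl) mice 14 days after immunization. All mice were female SJL/J, and the paper names no genetic modification. OVA-immunized mice had received ovalbumin (OVA) emulsified in complete Freund's adjuvant (CFA) under the skin of the flanks, and Ctrl mice were not immunized. The comparison holds 10 mice, 5 in each group, of the 30 mice in the series, and the members are every gene measured in them. OVA-immunized and Ctrl mice taken on day 40 (5 and 5) and EAE-induced mice taken on day 14 (5) were set beside it, and the EAE-induced mice of day 14 also shared the model that sets the spread for the day 14 tests. EAE-induced mice, which develop experimental autoimmune encephalomyelitis, had received a proteolipid protein (PLP) peptide in the same adjuvant, without pertussis toxin. The study included OVA-immunized mice to separate general immune activation by the adjuvant from the effect of the disease. No group received CFA alone, so that OVA and CFA cannot be told apart here, and the age of the mice is not given in the sources used here.

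CFA is an oil emulsion of heat-killed mycobacteria that feeds a lasting depot of innate immune stimulation at the injection site. Neutrophils are short-lived phagocytes released by the bone marrow, and they fill their granules in order as they mature: primary (azurophil) granule genes such as those of myeloperoxidase and elastase are transcribed in early precursors, and secondary and tertiary granule genes such as those of lactoferrin, cathelicidin and lipocalin 2 in later ones. Mature cells in blood hold large amounts of the calcium-binding proteins S100A8 and S100A9 and carry the chemokine receptor CXCR2. Interferons act through another branch of innate immunity: they switch on antiviral genes of the IFIT, MX and OAS families through a promoter element called the interferon-stimulated response element, and their signal is limited by SOCS1. Resting muscle also holds endothelium, red blood cells, fibroblasts, macrophages and mast cells, all of which add RNA to a whole-muscle library.

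The deposited value of each gene was log2(RPKM + 1), where RPKM is reads per kilobase of transcript scaled to the size of the library, and all levels below are RPKM. Library size, estimated from the step that 1 read makes in the low values, was 18.18 to 23.35 M reads in Ctrl and 18.79 to 23.99 M reads in OVA-immunized mice. Markers of the labelled tissue were present at high levels in every library: 13 fast-fibre genes summed to 83424 to 124913 RPKM in Ctrl and 76598 to 113787 RPKM in OVA-immunized mice, and 14 slow-fibre genes to 3340 to 4420 and 3375 to 4705 RPKM. Ctrl replicate 1 was the mouse farthest from its groupmates (median absolute log2 difference 0.358, against 0.113 to 0.303 for the other 9 mice), and Ctrl replicate 4 stood apart in the interferon-inducible GTPases described below. Replicates were separate mice.

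Of 11062 genes with a mean of at least 1 RPKM in either group, 15 rose and 11 fell in OVA-immunized mice (limma on log2(RPKM + 0.1), Benjamini-Hochberg adjusted p under 0.05 and fold above 1.5), which is 0.136% and 0.0994% of the genes tested. The number of falling genes depended on the fit: with only the 10 compared mice in the model 12 were called higher and 1 lower (11 of the 15 and 1 of the 11), with all 30 mice 24 and 51, and with median-of-ratios scaling 17 and 19. An unadjusted p under 0.05 was reached by 418 genes that were higher and 685 that were lower (3.78% and 6.19%), and by 489 and 470 without Ctrl replicate 4. The median log2 difference over all tested genes was -0.004, and 50.9% of them were lower. In 109 tested genes every OVA-immunized mouse lay above every Ctrl mouse (0.985%) and in 195 every one lay below (1.76%); all 26 called genes were among them. The rising genes were led by products of neutrophils, and the falling ones held interferon-stimulated genes, matrix genes and an eosinophil-associated ribonuclease. The plot of all genes shows the called genes as a small set at low to moderate expression around a level distribution.

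**Figure D1:**
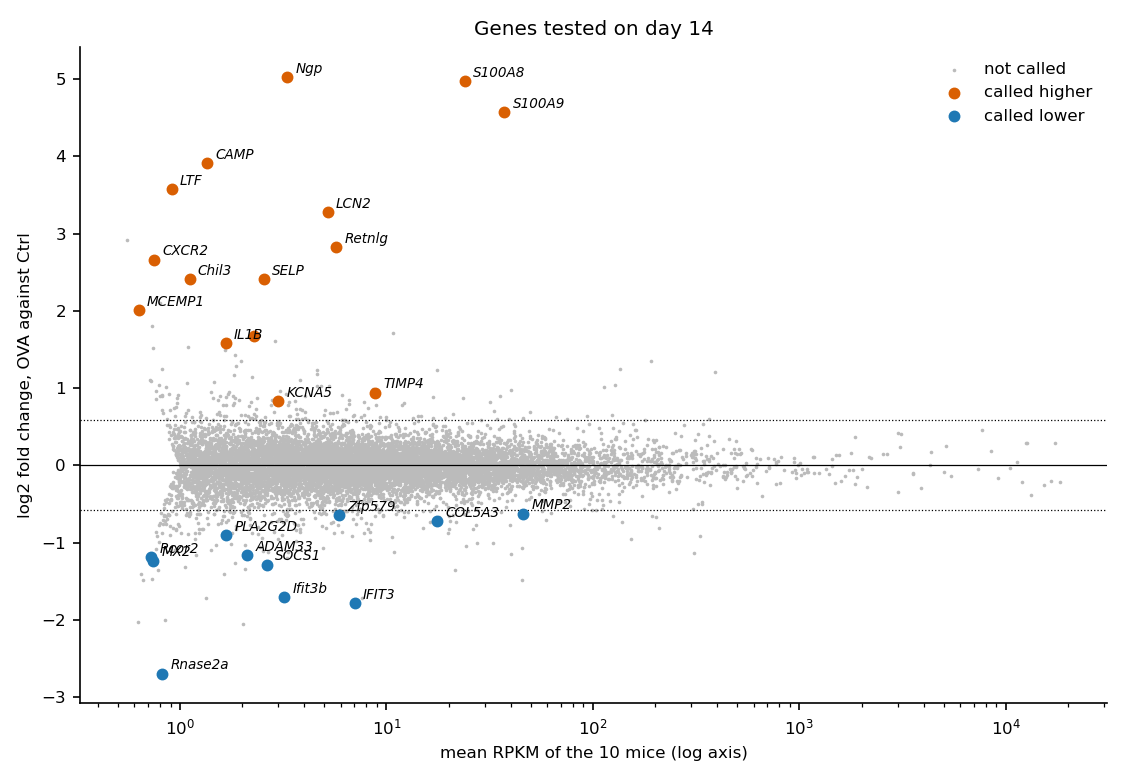
Each dot is one of 11062 tested genes, plotted by its mean RPKM over the 10 mice (log axis) and its log2 difference between OVA-immunized and Ctrl mice on day 14, with dotted lines at 1.5-fold. The 15 genes called higher (orange) reach log2 differences of 0.83 to 5.03, and the 11 called lower (blue) lie between -0.63 and -2.70, against a median of -0.004 over all genes.

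Genes of the neutrophil secondary granule were among those with the largest differences, led by Ngp. Ngp, neutrophilic granule protein (chr9:110419747-110423012, mm10), was measured at 0.0368, 0, 0.156, 0.269 and 0.0945 RPKM in the 5 Ctrl mice and at 6.54, 10.7, 4.61, 3.92 and 6.82 RPKM in the 5 OVA-immunized mice. Every OVA-immunized mouse was above every Ctrl mouse, the lowest at 3.92 RPKM and the highest Ctrl mouse at 0.269 RPKM. The log2 difference was 5.03 ± 0.39 (SE, n = 5 and 5; limma, adjusted p = 2.91e-06). CAMP, which encodes the antimicrobial peptide cathelicidin (chr9:109847379-109849617), was at 0.356, 0, 0, 0.149 and 0 RPKM in Ctrl and 4.02, 2.57, 1.04, 1.86 and 3.49 RPKM in OVA-immunized mice. LTF, which encodes the iron-binding protein lactoferrin (chr9:111019271-111042767), was at 0.0467, 0, 0.0330, 0.0978 and 0.0801 RPKM in Ctrl and 1.42, 2.99, 1.76, 0.966 and 1.71 RPKM in OVA-immunized mice. Both were at or near 0 in the unimmunized muscles and present in all 5 immunized ones, with log2 differences of 3.91 ± 0.49 (SE; adjusted p = 0.000809) and 3.58 ± 0.37 (SE; adjusted p = 9.74e-05). LCN2, lipocalin 2, a siderophore-binding protein that keeps iron from bacteria, was at 1.40, 1.37, 1.59, 0.314 and 0.321 RPKM in Ctrl and 9.88, 13.7, 5.42, 6.27 and 11.6 RPKM in OVA-immunized mice. Its groups were again apart, and the difference was 3.28 ± 0.40 (SE; adjusted p = 0.000708). Ngp, CAMP and LTF all lie on chromosome 9, without overlapping each other.

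The neutrophil alarmins, the calcium-binding proteins that these cells hold in their cytosol, reached the highest levels of any rising gene. S100A8 (chr3:90668978-90670035) was at 1.85, 1.03, 0.807, 1.82 and 0.979 RPKM in Ctrl and 84.4, 45.7, 22.5, 28.0 and 52.1 RPKM in OVA-immunized mice. Its partner S100A9 (chr3:90692632-90695721), with which it forms calprotectin, was at 4.02, 1.85, 2.50, 3.20 and 1.91 RPKM in Ctrl and 109, 104, 29.2, 41.6 and 75.1 RPKM in OVA-immunized mice. OVA-immunized replicate 1 was highest and replicate 3 lowest for both, and no immunized mouse came near the unimmunized range. The log2 differences were 4.98 ± 0.36 (SE; adjusted p = 1.85e-06) and 4.57 ± 0.39 (SE; adjusted p = 9.72e-06). CXCR2, the receptor for neutrophil-attracting chemokines, was at 0.224, 0.148, 0.178, 0 and 0.108 RPKM in Ctrl and 1.76, 2.04, 0.598, 0.975 and 1.49 RPKM in OVA-immunized mice. These levels correspond to an estimated 0 to 16 reads per Ctrl library and 35 to 141 reads per OVA-immunized library, and the difference was 2.66 ± 0.40 (SE; adjusted p = 0.00655). Retnlg, a resistin-like secreted protein of granulocytes, was at 2.81, 0.815, 1.56, 1.32 and 0.361 RPKM in Ctrl and 19.2, 10.3, 3.42, 6.88 and 10.2 RPKM in OVA-immunized mice; the lowest immunized mouse, replicate 3, was just above the highest Ctrl mouse, replicate 1. Chil3, a chitinase-like lectin of myeloid cells, was at 0.107 to 0.610 RPKM in Ctrl and 0.964 to 2.94 RPKM in OVA-immunized mice, and MCEMP1, a membrane protein of mast cells and other myeloid cells, at 0.0797 to 0.395 and 0.735 to 1.58 RPKM. These 3 rose by log2 differences of 2.82, 2.41 and 2.01 (limma, adjusted p = 0.0246, 0.00362 and 0.0147).

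**Figure D2:**
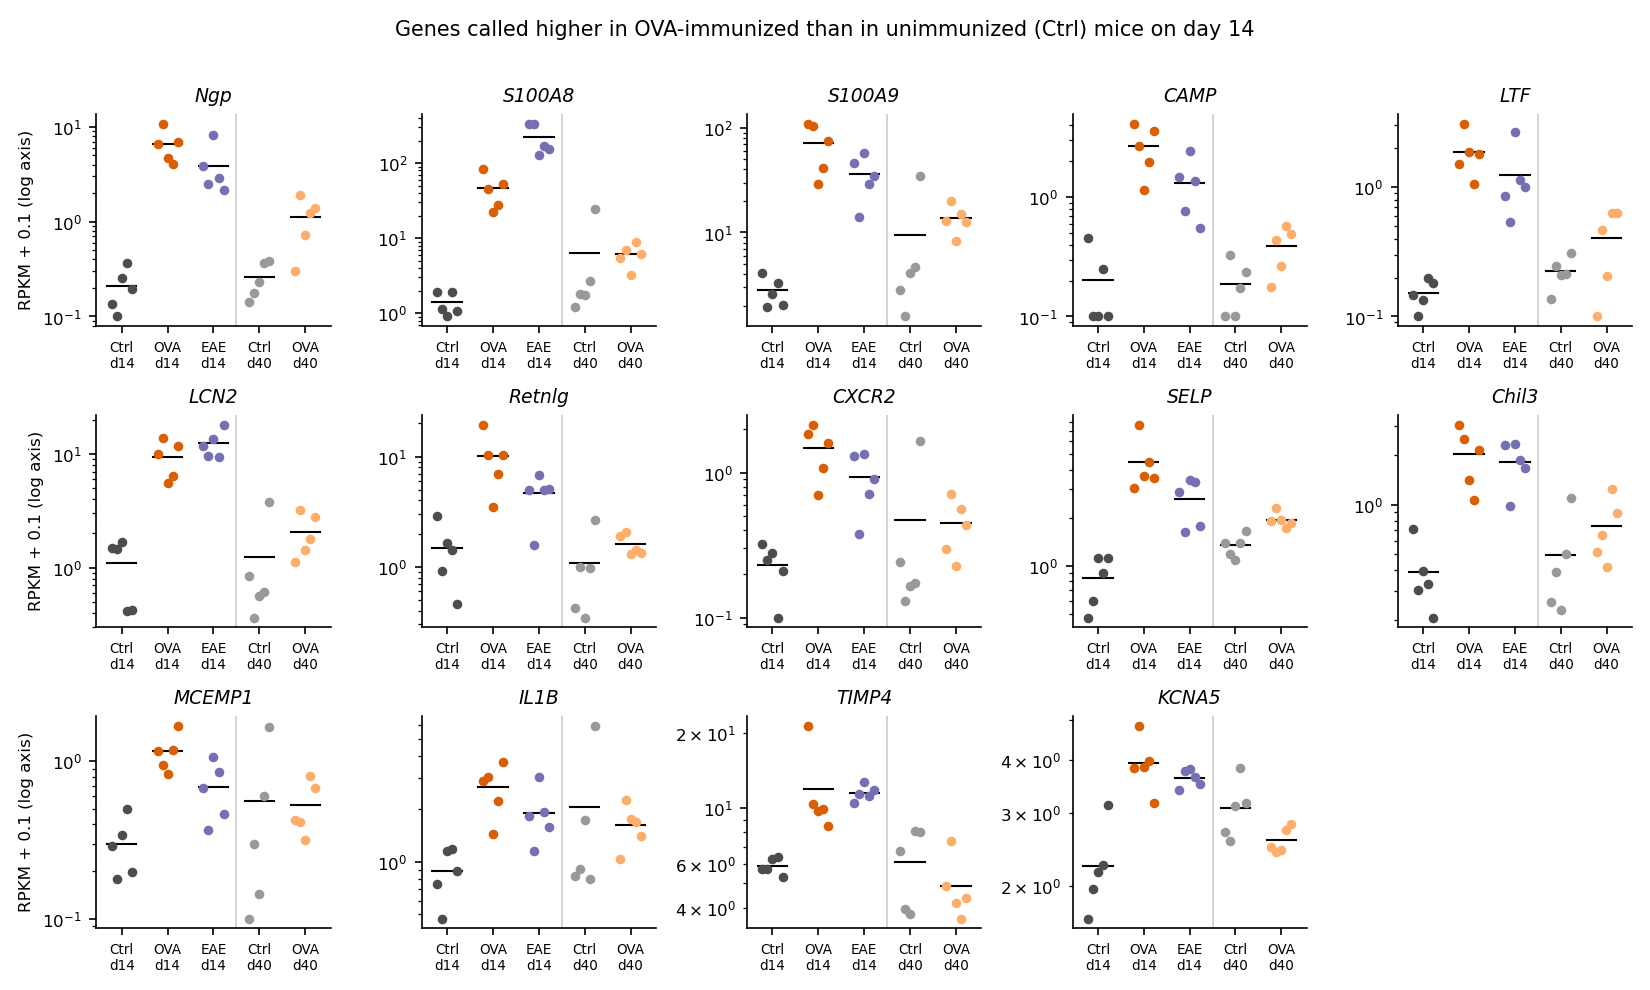
Each panel is one of 14 of the 15 genes called higher in OVA-immunized mice on day 14; the y axis is RPKM + 0.1 on a log scale, each dot is a mouse and each bar the arithmetic mean of its group of 5 (Ctrl, OVA and EAE on day 14, Ctrl and OVA on day 40). Ngp lies between 3.92 and 10.7 RPKM in the OVA-immunized mice of day 14 against at most 0.269 RPKM in Ctrl, and 1 Ctrl mouse of day 40 stands apart at 24.6 RPKM for S100A8.

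Among the 10 called genes that belong to the neutrophil lists (among them IL1B, described below and not specific to these cells), OVA-immunized replicate 1 was highest in 5 and replicate 2 in 4, while replicate 3 was lowest in 7 and replicate 4 in 3. High neutrophil values were thus mostly those of replicates 1 and 2, and low values those of replicates 3 and 4. Whether more neutrophils or more RNA per neutrophil set a level cannot be told apart in bulk muscle, and the same holds for every cell type below, where a lower level can be fewer cells or less RNA per cell.

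Neutrophil genes that were too low to be tested were read over the whole lists, tested or not. All 15 secondary and tertiary granule genes had a higher mean in OVA-immunized mice, and in 9 of them every immunized mouse was above every Ctrl mouse, against 0.872% of the 17192 genes with a read in these 10 mice (1.41% lay below without overlap). All 23 genes of the neutrophil cytosol and surface list also had a higher mean, 11 of them without overlap. Ly6g, the surface antigen used to identify mouse neutrophils, was at 0 to 0.105 RPKM in Ctrl and 0.257 to 0.883 RPKM in OVA-immunized mice, CD177 at 0.133 to 0.409 and 0.632 to 1.15 RPKM, and the collagenase gene MMP8 at 0.0183 to 0.209 and 0.410 to 1.20 RPKM. Summed over the list, secondary and tertiary granule genes came to 8.8 to 17.3 RPKM in Ctrl and 27.7 to 66.8 RPKM in OVA-immunized mice, and cytosol and surface genes to 5.5 to 10.2 and 58.9 to 208.1 RPKM. No median or count over the tested genes of these lists is given here, because 9 of the 15 genes called higher passed the 1 RPKM filter only through the immunized group. These were Ngp, CAMP, LTF, LCN2, CXCR2, SELP, IL1B, Chil3 and MCEMP1. CSF3R, the receptor for the granulocyte growth factor G-CSF, also passed that filter only through the immunized group. It was at 0.379 to 0.795 RPKM in Ctrl and 0.989 to 2.67 RPKM in OVA-immunized mice, a difference of 1.53 ± 0.32 (SE) that missed the adjusted threshold (limma, adjusted p = 0.0604). The cysteine protease inhibitor gene Stfa2l1 (2.91, adjusted p = 0.111) and the whey acidic protein family gene Wfdc21 (1.49, adjusted p = 0.209) were likewise above the Ctrl range in every immunized mouse without passing it.

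Primary granule genes stayed near 0. MPO, myeloperoxidase, was at 0 to 0.0178 RPKM in Ctrl and 0.0174 to 0.104 RPKM in OVA-immunized mice, and ELANE, neutrophil elastase, at 0 to 0.0492 and 0 to 0.0577 RPKM. BPI had no read in any of the 10 mice and MS4A3 no read in Ctrl and at most 0.0505 RPKM in OVA-immunized mice. PRTN3, proteinase 3, alone had groups that do not overlap, with 0 to 0.169 RPKM in Ctrl and 0.218 to 0.525 RPKM in immunized mice. Ctsg was at 0.0893 to 0.426 RPKM in Ctrl and 0 to 0.476 RPKM in immunized mice, which overlap. All 5 genes with a read had a higher mean in OVA-immunized mice. None of the 6 genes reached 1 RPKM, so none was tested, and their sum was 0.184 to 0.498 RPKM in Ctrl and 0.444 to 0.856 RPKM in OVA-immunized mice.

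SELP encodes P-selectin, the adhesion molecule that endothelial cells and platelets move to their surface to capture rolling leukocytes. It was at 0.372, 0.498, 1.01, 0.793 and 1.02 RPKM in Ctrl and 2.95, 7.52, 3.57, 4.38 and 3.42 RPKM in OVA-immunized mice. The lowest immunized mouse was at 2.95 RPKM and the highest Ctrl mouse at 1.02 RPKM, and the log2 difference was 2.41 ± 0.30 (SE, n = 5 and 5; limma, adjusted p = 0.000809). It was the single called gene of the endothelial activation and adhesion list, of whose 15 tested genes 10 were higher and 5 lower. VWF, von Willebrand factor (0.56, limma, adjusted p = 0.384), the venular chemokine receptor ACKR1 (0.62, adjusted p = 0.151) and the endothelial glycoprotein LRG1 (0.67, adjusted p = 0.255) each had an unadjusted p under 0.05 and a log2 difference in the same direction that did not pass the adjusted threshold. The adhesion receptors ICAM1 (0.34, adjusted p = 0.629) and VCAM1 (0.09, adjusted p = 0.873) did not reach an unadjusted p under 0.05. Over 14 genes that mark endothelial cells as such the median log2 difference was 0.16, with no gene higher and 1 lower at an unadjusted p under 0.05.

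IL1B, the inflammatory cytokine interleukin 1 beta, was at 0.642, 0.373, 1.05, 1.08 and 0.785 RPKM in Ctrl and 2.78, 2.92, 1.33, 2.11 and 3.58 RPKM in OVA-immunized mice. The groups were separate by a narrow margin, 1.08 against 1.33 RPKM, and the log2 difference was 1.58 ± 0.30 (SE; limma, adjusted p = 0.0355). CXCL1, a ligand of CXCR2, differed by 1.08 on the log2 scale without passing the adjusted threshold (adjusted p = 0.127). In the opposite direction, CXCL10 (-1.72), CCL5 (-1.35) and CCL22 (-1.35), chemokines that attract lymphocytes, had adjusted p-values of 0.282, 0.185 and 0.348. The median over 22 tested chemokines and receptors was -0.03. Macrophage genes were level, with a median of -0.02 over 19 tested genes and 1 gene in each direction at an unadjusted p under 0.05, and only 3 of 24 lymphocyte genes reached the 1 RPKM filter.

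Red blood cell genes lay in the same direction as the neutrophil genes. All 14 genes of the erythrocyte list in the table had a higher mean in OVA-immunized mice and 5 did not overlap (0.872% of all genes with a read did so). Of the 8 tested genes 7 were higher at an unadjusted p under 0.05, as were 3.78% of all tested genes, and 4 to 7 were with each mouse left out. Alas2, which catalyses the first step of haem synthesis in red cells, was at 2.78, 4.23, 10.4, 6.55 and 2.85 RPKM in Ctrl and 20.2, 14.4, 10.7, 20.9 and 14.4 RPKM in OVA-immunized mice, a log2 difference of 1.71 ± 0.44 (SE; adjusted p = 0.151). The groups were apart by a narrow margin for this gene, 10.4 against 10.7 RPKM. The adult beta-globin Hbb-bs differed by 1.35 and the alpha-globin Hba-a1 by 1.20. Red-cell genes summed to 286.8 to 884.7 RPKM in Ctrl and 652.1 to 2073.8 RPKM in OVA-immunized mice, ranges that overlap. Near-identical globin copies may share reads, so a single globin gene's value is uncertain. Blood-borne RNA and the neutrophil genes therefore moved in the same direction, and the part of blood left in the muscle in the neutrophil result was not tested. On average S100A8 was at 1.30 RPKM in Ctrl and 46.5 RPKM in OVA-immunized mice, and Hbb-bs at 108 and 273 RPKM. Among platelet genes, PPBP, a platelet chemokine precursor, was at 0.0395 to 0.544 RPKM in Ctrl and 0.897 to 1.84 RPKM in OVA-immunized mice (2.10 ± 0.42 SE, adjusted p = 0.0527), and PF4, platelet factor 4, differed by -0.37. PPBP passed the 1 RPKM filter only through the immunized group. Of the 8 genes of the platelet list, 7 had a higher mean in OVA-immunized mice and 1 a lower one. In 2 of them every immunized mouse was above every Ctrl mouse (0.872% of all genes with a read).

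The last pair of rising genes are known mainly from cells other than leukocytes. TIMP4, an inhibitor of matrix metalloproteinases found in heart and muscle, was at 5.60, 5.60, 6.19, 6.28 and 5.23 RPKM in Ctrl and 21.2, 10.3, 9.66, 9.80 and 8.40 RPKM in OVA-immunized mice. Replicate 1 was far above the other immunized mice, which still lay above every Ctrl mouse, and the log2 difference was 0.94 ± 0.18 (SE; adjusted p = 0.0437). KCNA5, a voltage-gated potassium channel, was at 1.57, 1.87, 2.06, 2.16 and 3.03 RPKM in Ctrl and 3.74, 4.73, 3.75, 3.88 and 3.06 RPKM in OVA-immunized mice, with a gap of 3.03 to 3.06 between the groups and a log2 difference of 0.83 ± 0.15 (SE; adjusted p = 0.0280). Both calls were lost in 8 of the 10 fits that left out 1 mouse.

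Turning to the genes that fell, 4 of the 11 respond to interferon. IFIT3 and Ifit3b encode closely related proteins of the IFIT family, which bind viral RNA or the proteins that sense it, and lie beside each other on chromosome 19 (chr19:34583531-34588731 and chr19:34607970-34613401); reads may be shared between these copies, so each value is uncertain on its own. SOCS1 (chr16:10782240-10785536) encodes the feedback inhibitor of interferon and cytokine receptors. The 250 bases before the start of these genes are shown because they hold the letters of the interferon-stimulated response element that the genes share. Sequences are from RefSeq (GRCm38.p6, the C57BL/6J reference, while the mice were SJL/J), each printed 5′ to 3′ on the gene's strand, and capitals mark every match, on either strand, to a pair of GAAA half-sites with any 2 bases between them.
IFIT3 promoter, chr19:34583279-34583528, plus strand: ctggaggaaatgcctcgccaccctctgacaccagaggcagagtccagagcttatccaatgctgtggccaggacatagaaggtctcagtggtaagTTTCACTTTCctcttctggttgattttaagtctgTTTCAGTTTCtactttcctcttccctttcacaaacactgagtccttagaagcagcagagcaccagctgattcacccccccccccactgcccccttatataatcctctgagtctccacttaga
Ifit3b promoter, chr19:34607707-34607956, plus strand: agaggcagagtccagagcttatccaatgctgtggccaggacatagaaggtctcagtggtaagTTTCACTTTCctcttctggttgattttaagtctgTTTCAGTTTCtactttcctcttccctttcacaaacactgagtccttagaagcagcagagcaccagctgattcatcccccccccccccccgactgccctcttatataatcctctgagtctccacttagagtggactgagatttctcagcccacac
SOCS1 promoter, chr16:10785537-10785786, minus strand: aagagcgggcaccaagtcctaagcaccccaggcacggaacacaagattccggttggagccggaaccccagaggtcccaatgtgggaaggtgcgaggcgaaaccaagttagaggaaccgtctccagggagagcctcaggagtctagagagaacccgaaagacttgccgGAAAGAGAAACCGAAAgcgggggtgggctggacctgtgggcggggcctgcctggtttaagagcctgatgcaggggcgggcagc

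In the IFIT3 window the matches read as TTTC half-sites, which is the element on the other strand, and begin 156 and 122 bases before the start; in Ifit3b they begin 188 and 154 bases before it. Both pairs are 34 bases apart, and with the windows shifted by 32 bases, 188 of 218 aligned bases are identical. SOCS1 holds a pair of overlapping matches on its own strand, 83 and 77 bases before the start. The motif occurs in 3.46% of the 27025 genes with a promoter in the table. A window was found for 8 of the 11 falling genes, of which these 3 hold a match, and for 14 of the 15 rising genes, of which 0 do; fewer than 80% of the falling genes were matched, and no share is given for them. MX2 was named only. Within the interferon-stimulated antiviral list described below, a window was found for 21 of the 29 genes lower at an unadjusted p under 0.05 (limma). Of these windows 7 hold a match. For the 28 other tested genes of that list 23 windows were found, of which 6 hold a match. A match is a description of letters and not of binding.

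IFIT3 was at 21.0, 6.49, 12.2, 12.5 and 4.01 RPKM in Ctrl and 2.56, 2.69, 2.37, 2.41 and 3.88 RPKM in OVA-immunized mice. Ctrl mice spread widely, from 4.01 to 21.0 RPKM, whereas 4 of the 5 immunized mice lay within 2.37 to 2.69 RPKM, and the highest immunized mouse was just under the lowest Ctrl mouse. The log2 difference was -1.78 ± 0.33 (SE, n = 5 and 5; limma, adjusted p = 0.0344). Ifit3b was at 6.80, 3.83, 4.17, 7.46 and 2.83 RPKM in Ctrl and 1.13, 1.64, 1.76, 1.24 and 1.22 RPKM in OVA-immunized mice, with a clear gap and a difference of -1.70 ± 0.28 (SE; adjusted p = 0.0149). MX2, a dynamin-like antiviral GTPase, was low in both groups, at 1.69, 1.00, 0.933, 0.978 and 0.838 RPKM in Ctrl and 0.394, 0.436, 0.451, 0.263 and 0.443 RPKM in OVA-immunized mice, and differed by -1.23 ± 0.21 (SE; adjusted p = 0.0204). MX2 passed the 1 RPKM filter only through the Ctrl mice. SOCS1 was at 3.98, 2.73, 3.11, 6.12 and 3.01 RPKM in Ctrl and 1.33, 1.30, 1.07, 1.48 and 2.18 RPKM in OVA-immunized mice, a difference of -1.29 ± 0.24 (SE; adjusted p = 0.0344). The level that stood out for SOCS1 was that of the unimmunized mice of day 14, whose lowest value, 2.73 RPKM, was above all 25 other mice of the series.

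**Figure D3:**
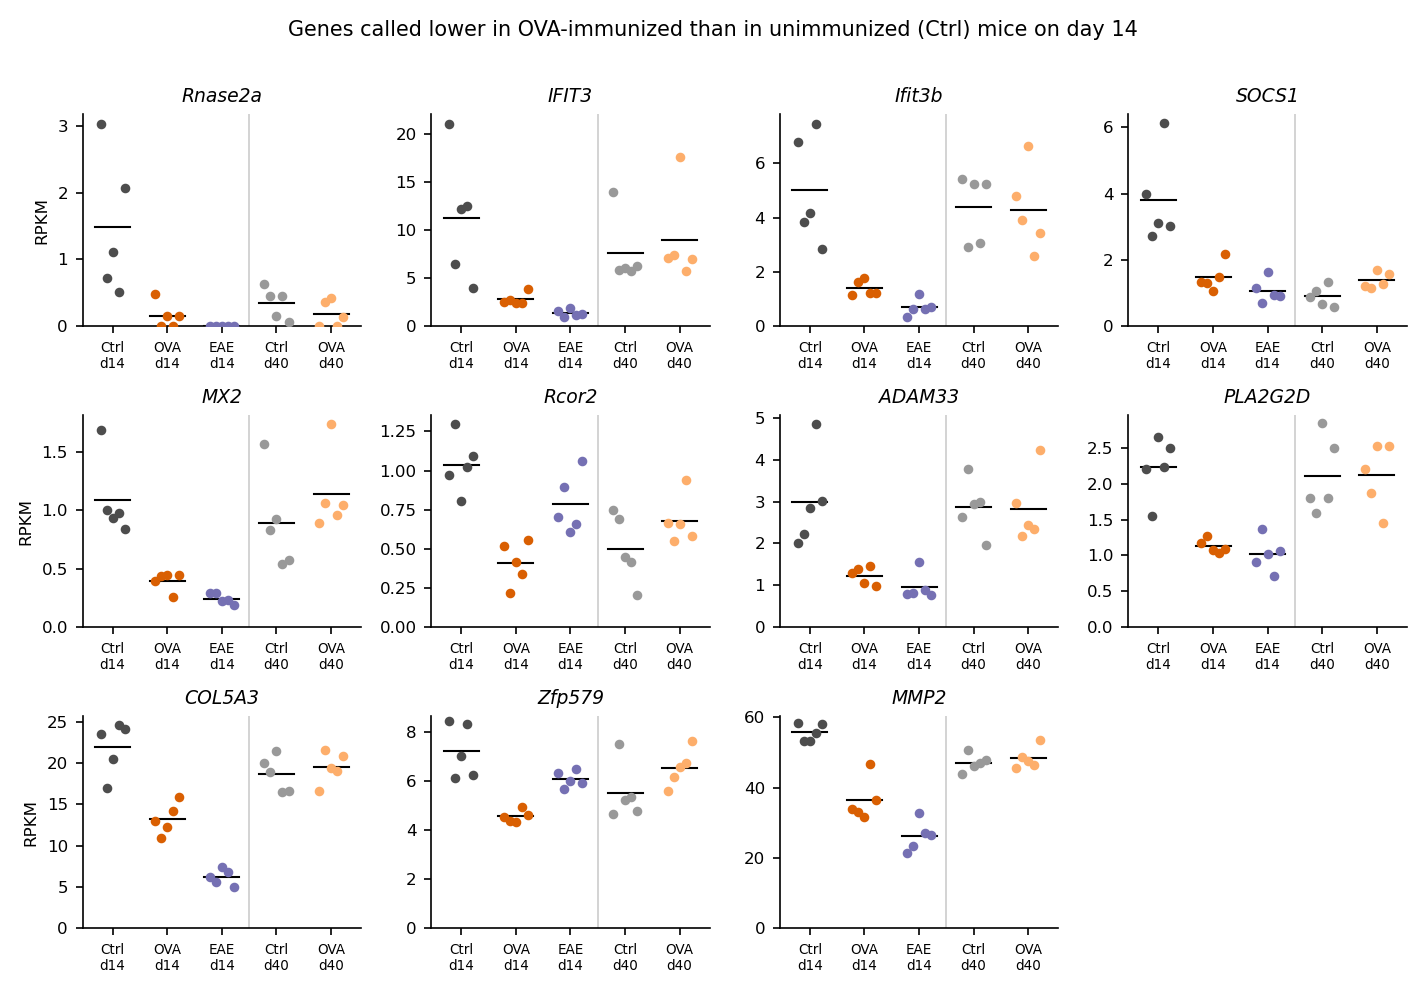
Each panel is one of the 11 genes called lower in OVA-immunized mice on day 14; the y axis is RPKM from 0, each dot is a mouse and each bar the mean of its group of 5 (Ctrl, OVA and EAE on day 14, Ctrl and OVA on day 40). Of the 5 OVA-immunized mice, 4 lie at 2.37 to 2.69 RPKM for IFIT3, and the Ctrl mice of day 14 stand above every other group for SOCS1.

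Of all 63 genes of the interferon-stimulated antiviral list, tested or not, 58 had a lower mean in OVA-immunized mice and 5 a higher one. Only 47 of the 57 tested genes reached a mean of 1 RPKM in OVA-immunized or EAE-induced mice. The others passed the filter only through Ctrl, where they were high, which can tilt values over the tested genes toward a decrease. Of the 57 tested genes 52 were lower and 5 higher, with a median log2 difference of -0.57. At an unadjusted p under 0.05, 29 were lower and 2 higher, where 6.19% and 3.78% of all tested genes were, and 3 were called, IFIT3, Ifit3b and MX2. In 9 genes all 5 immunized mice lay below every Ctrl mouse, as in 1.76% of all tested genes, among them the deubiquitinating enzyme gene USP18 (-1.14, adjusted p = 0.164), the oligoadenylate synthetase Oas1b (-1.16, adjusted p = 0.209), the mitochondrial nucleotide kinase CMPK2 (-0.88, adjusted p = 0.104) and XAF1 (-0.95, adjusted p = 0.122). Outside the list, the apolipoprotein L genes Apol9a (-1.47, adjusted p = 0.230) and Apol9b (-2.01, adjusted p = 0.0527), a pair of near copies, and the lipoxygenase ALOX15 (-1.49, adjusted p = 0.127) were also below the Ctrl range in every immunized mouse without being called. Ifitm1, an interferon-induced membrane protein, went the other way, at 2.49, 3.32, 2.74, 2.98 and 1.76 RPKM in Ctrl and 7.76, 8.18, 3.40, 5.36 and 8.33 RPKM in OVA-immunized mice (1.24 ± 0.28 SE, adjusted p = 0.0996). Summed over the tested genes the ranges overlapped, with 457.7 to 960.8 RPKM in Ctrl and 407.3 to 619.7 RPKM in OVA-immunized mice. When each mouse was left out in turn, a step chosen after seeing the data, the median stayed between -0.67 and -0.43 and 21 to 33 genes were lower at an unadjusted p under 0.05; the medians nearest to 0 came without Ctrl replicate 1 (-0.43) and replicate 4 (-0.44).

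Other gene groups that interferons control rested more on a single unimmunized mouse. Among the interferon-inducible GTPases, which attack the vacuoles of intracellular pathogens, 17 of all 18 genes had a lower mean in OVA-immunized mice and 1 a higher one. Of 16 tested genes, 13 reached a mean of 1 RPKM in OVA-immunized or EAE-induced mice, and the others passed the filter only through Ctrl. The median over the 16 genes was -0.61, with 15 of them lower and no gene called. Ctrl replicate 4 held 914.0 RPKM of these transcripts against 67.0 to 197.6 RPKM in the other 4 Ctrl mice and 50.8 to 134.7 RPKM in OVA-immunized mice, and Igtp alone was at 18.9, 13.7, 15.4, 301 and 39.6 RPKM in Ctrl and 6.44, 15.0, 19.6, 9.98 and 14.2 RPKM in OVA-immunized mice. Without that mouse the median was -0.08, and over all 10 mice left out in turn it ran from -0.90 to -0.08. For MHC class I and class II, 21 of 22 and 7 of 8 tested genes reached 1 RPKM in OVA-immunized or EAE-induced mice. The others passed the filter only through Ctrl. Genes of MHC class I and antigen processing had a median of -0.46 over 22 genes, 20 of them lower. Of these, 4 were at an unadjusted p under 0.05, where 6.19% of all tested genes were lower. The 8 MHC class II genes had a median of -0.50 with 0 at that threshold. Without Ctrl replicate 4 these medians were -0.16 and -0.27, with 0 genes at that threshold. Without Ctrl replicate 2 they were -0.70 and -0.71, with 13 and 5 genes at it. The antiviral list thus kept most of its difference without that mouse, and the GTPases did not.

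The largest decrease among the called genes was in Rnase2a, a member of the eosinophil-associated ribonuclease family. Rnase2a, MX2 and Rcor2 passed the 1 RPKM filter only through the Ctrl mice, the group in which they were high. Rnase2a was at 3.02, 0.717, 1.11, 0.517 and 2.06 RPKM in Ctrl and 0.481, 0, 0.151, 0 and 0.148 RPKM in OVA-immunized mice, which is an estimated 8 to 49 reads per Ctrl library and 0 to 8 reads per OVA-immunized library. No read was seen in 2 of the 5 immunized mice, and the log2 difference was -2.70 ± 0.50 (SE, n = 5 and 5; limma, adjusted p = 0.0317). It belongs to a family of near copies, among which reads may be shared; Ear2, another member, was at 1.51 to 4.23 and 0.985 to 2.00 RPKM (-0.80, adjusted p = 0.339). The eosinophil-defining markers were near 0 in both groups, with EPX, eosinophil peroxidase, at 0 in every Ctrl mouse and 0 to 0.0309 RPKM in OVA-immunized mice and Siglecf at 0.111 to 0.388 and 0.0541 to 0.128 RPKM.

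Mast cell proteases were lower too, without a called gene. CMA1, mast cell chymase, was at 19.7, 15.6, 16.3, 9.93 and 12.0 RPKM in Ctrl and 7.83, 4.99, 3.48, 10.2 and 8.35 RPKM in OVA-immunized mice, groups that overlap in 1 mouse of each. The log2 differences were -1.12 for CMA1, -1.04 for the chymase Mcpt4, -0.82 and -0.79 for the tryptases TPSB2 and Tpsab1, and -0.65 for carboxypeptidase CPA3, with adjusted p-values of 0.0788, 0.131, 0.274, 0.170 and 0.214 (limma). Of the 15 genes of the mast cell and eosinophil list, 12 had a lower mean in OVA-immunized mice and 3 a higher one. All 6 tested genes were lower at an unadjusted p under 0.05, as were 6.19% of all tested genes. Summed over the list, the level was 59.5 to 119.2 RPKM in Ctrl and 26.6 to 63.0 RPKM in OVA-immunized mice, and KIT, the receptor that mast cells depend on, was at 0.724 to 1.30 and 0.513 to 1.07 RPKM. The median over the tested genes was -0.81 and stayed between -0.93 and -0.67 with each mouse left out.

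Among the falling genes, COL5A3, MMP2 and ADAM33 act in or near the extracellular matrix, and PLA2G2D, whose product is secreted, is given with them. COL5A3, a fibrillar collagen chain that pairs with other type V chains, was at 23.5, 17.0, 20.5, 24.7 and 24.1 RPKM in Ctrl and 13.0, 10.9, 12.3, 14.2 and 15.9 RPKM in OVA-immunized mice. MMP2, gelatinase A, was at 58.4, 53.3, 53.2, 55.7 and 58.1 RPKM in Ctrl and 34.0, 32.9, 31.8, 46.8 and 36.6 RPKM in OVA-immunized mice. In both genes the groups were apart, by 15.9 against 17.0 RPKM and by 46.8 against 53.2 RPKM, and the log2 differences were -0.72 ± 0.14 (SE; limma, adjusted p = 0.0344) and -0.63 ± 0.12 (SE; adjusted p = 0.0437). ADAM33, a metalloproteinase anchored in the membrane of mesenchymal cells, was at 2.01, 2.23, 2.84, 4.86 and 3.01 RPKM in Ctrl and 1.29, 1.39, 1.05, 1.46 and 0.984 RPKM in OVA-immunized mice (-1.16 ± 0.23 SE, adjusted p = 0.0469). PLA2G2D, a secreted phospholipase A2, was at 1.55 to 2.65 and 1.03 to 1.26 RPKM (-0.91 ± 0.17 SE, adjusted p = 0.0344).

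Collagen genes as a group lay lower in OVA-immunized mice. Of all 39 chains, tested or not, 35 had a lower mean in OVA-immunized mice and 4 a higher one. Of the 26 tested, 25 reached 1 RPKM in OVA-immunized or EAE-induced mice. All 26 tested collagen chains had a negative log2 difference, with a median of -0.36. Of them, 9 had an unadjusted p under 0.05 and COL5A3 was the 1 called. Among all tested genes 50.9% were lower, and 6.19% were lower at an unadjusted p under 0.05. COL1A1, the main chain of type I collagen, was at 196, 557, 290.1, 686 and 429 RPKM in Ctrl and 179.5, 106, 221, 248 and 177 RPKM in OVA-immunized mice, so that Ctrl replicate 1 lay within the immunized range and the other 4 Ctrl mice above it. Its difference of -1.13 ± 0.33 (SE), and those of -0.91 for COL1A2 and -0.57 for COL3A1, did not pass the adjusted threshold (limma, adjusted p = 0.230, 0.349 and 0.324). Of 24 genes that fold, cleave or crosslink collagen, 21 were lower and 11 had an unadjusted p under 0.05, including the collagen-binding protein SPARC (-0.81), the lysyl oxidase LOXL2 (-0.64) and the procollagen protease BMP1 (-0.64). Markers of fibroblasts and fibro-adipogenic progenitors were lower in 14 of 17 genes, 8 of them at an unadjusted p under 0.05, with PI16 at -0.70 and MFAP5 at -0.55 on the log2 scale; their summed level was 1751 to 2018 RPKM in Ctrl and 1251 to 1700 RPKM in OVA-immunized mice, which do not overlap. Fibroblast markers thus moved with the collagens, and their part in the collagen result was not tested. Mouse by mouse, the collagen chains summed to 714.8 to 1939 RPKM in Ctrl and 620.2 to 928.7 RPKM in OVA-immunized mice, ranges that overlap through Ctrl replicate 1, and the list's median stayed between -0.51 and -0.27 with each mouse left out. In those fits 7 to 15 chains were lower at an unadjusted p under 0.05, 15 of them without Ctrl replicate 1, and without OVA-immunized replicate 1 the split was 5 higher and 21 lower.

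The remaining falling genes are nuclear. Zfp579, a zinc finger protein, was at 8.41, 6.11, 6.99, 8.30 and 6.22 RPKM in Ctrl and 4.52, 4.36, 4.33, 4.93 and 4.61 RPKM in OVA-immunized mice, with a log2 difference of -0.64 ± 0.10 (SE; adjusted p = 0.0131). Rcor2, a corepressor that works with the histone demethylase LSD1, was at 0.808 to 1.30 and 0.219 to 0.558 RPKM (-1.19 ± 0.22 SE, adjusted p = 0.0317). ARHGEF25, a guanine nucleotide exchange factor, passed the adjusted threshold (adjusted p = 0.0416) with a log2 difference of -0.52, which is under the fold threshold.

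No gene of the muscle's own lists for fibre type, innervation, atrophy and energy metabolism was called. Fast-fibre genes had a median log2 difference of -0.14 over 13 genes and slow-fibre genes 0.02 over 14, and no fast-fibre gene had an unadjusted p under 0.05. Genes of the neuromuscular junction and of denervation were centred at -0.01 over 18 genes, and the ubiquitin ligases and FoxO targets of atrophy at 0.03 over 26, with 0 genes at an unadjusted p under 0.05 in either list. Satellite cell and myogenic genes were at -0.05 over 14. For respiration the medians were -0.03 over 36 complex I genes and 0.02 over 40 genes of complexes II to V, while 12 of the 13 mitochondrially encoded genes were higher with a median of 0.28 and no p under 0.05. Ctrl replicate 4 held the least of these transcripts, 41110 RPKM against 66850 to 83977 RPKM in the other Ctrl mice and 74938 to 87263 RPKM in OVA-immunized mice; the median was 0.07 without it, and 0 to 3 genes had a p under 0.05 with each mouse left out. In the tricarboxylic acid cycle 17 of 19 tested genes were higher, median 0.15, led by DLD (0.53) and IDH3A (0.41). At an unadjusted p under 0.05, 3 were higher and 0 lower (3.78% and 6.19% of all tested genes). Of the 20 genes of that list, 3 had every immunized mouse above every Ctrl mouse (15%, against 0.872% of all genes with a read). Fatty acid oxidation had a median of 0.14 over 26 genes (0.06 to 0.25 with each mouse left out), 4 of them higher at an unadjusted p under 0.05 (3 to 11, the most without Ctrl replicate 3): PDK4, the kinase that shuts off pyruvate oxidation (1.01), UCP3, a mitochondrial uncoupling protein family member (0.98), the fatty acid transporter CD36 (0.53) and ECI1 (0.46). UCP3 was at 14.5, 27.5, 42.9, 35.6 and 20.1 RPKM in Ctrl and 50.4, 53.9, 65.5, 43.1 and 47.4 RPKM in OVA-immunized mice, groups that touch without overlapping (adjusted p = 0.255). Ribosomal protein genes were lower in 63 of 74 with a median of -0.18 and no p under 0.05; with each mouse left out the median ran from -0.39 to -0.03 and 0 to 14 genes were lower at that threshold, the most without OVA-immunized replicate 1. Glycolysis and glycogen genes had a median of -0.07 over 26. Targets of the glucocorticoid receptor had a median of 0.16 over 21 genes, 5 of them higher and 0 lower at an unadjusted p under 0.05; with each mouse left out these were 0.06 to 0.33, 1 to 5 and 0 to 2. The circadian clock genes had a median of -0.10 over 19 with 4 in each direction, and -0.20 to 0.07 with each mouse left out. Complement genes had a median of -0.06 over 23 (0.08 without OVA-immunized replicate 3), with C3, the central component, at 0.90 and not called (limma, adjusted p = 0.487).

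Across the 49 lists 1137 genes were named, of which 928 were tested, and 40 of the 48 lists with a tested gene held no called gene. The plot of the gene lists puts the interferon, MHC, mast cell and collagen lists to the left of the fibre, tricarboxylic acid cycle and fatty acid lists, and the erythrocyte list, whose 8 tested genes all had a mean of at least 1 RPKM in Ctrl mice too, to the right. It leaves out the neutrophil lists, whose tested genes include ones that passed the filter only through the immunized group. The lists it keeps are not free of such genes. SELP, in the endothelial activation and adhesion list, had a mean of 0.739 RPKM in Ctrl and passed only through the immunized group. Some genes of the antiviral, GTPase, MHC and collagen lists, among others, passed only through Ctrl.

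**Figure D4:**
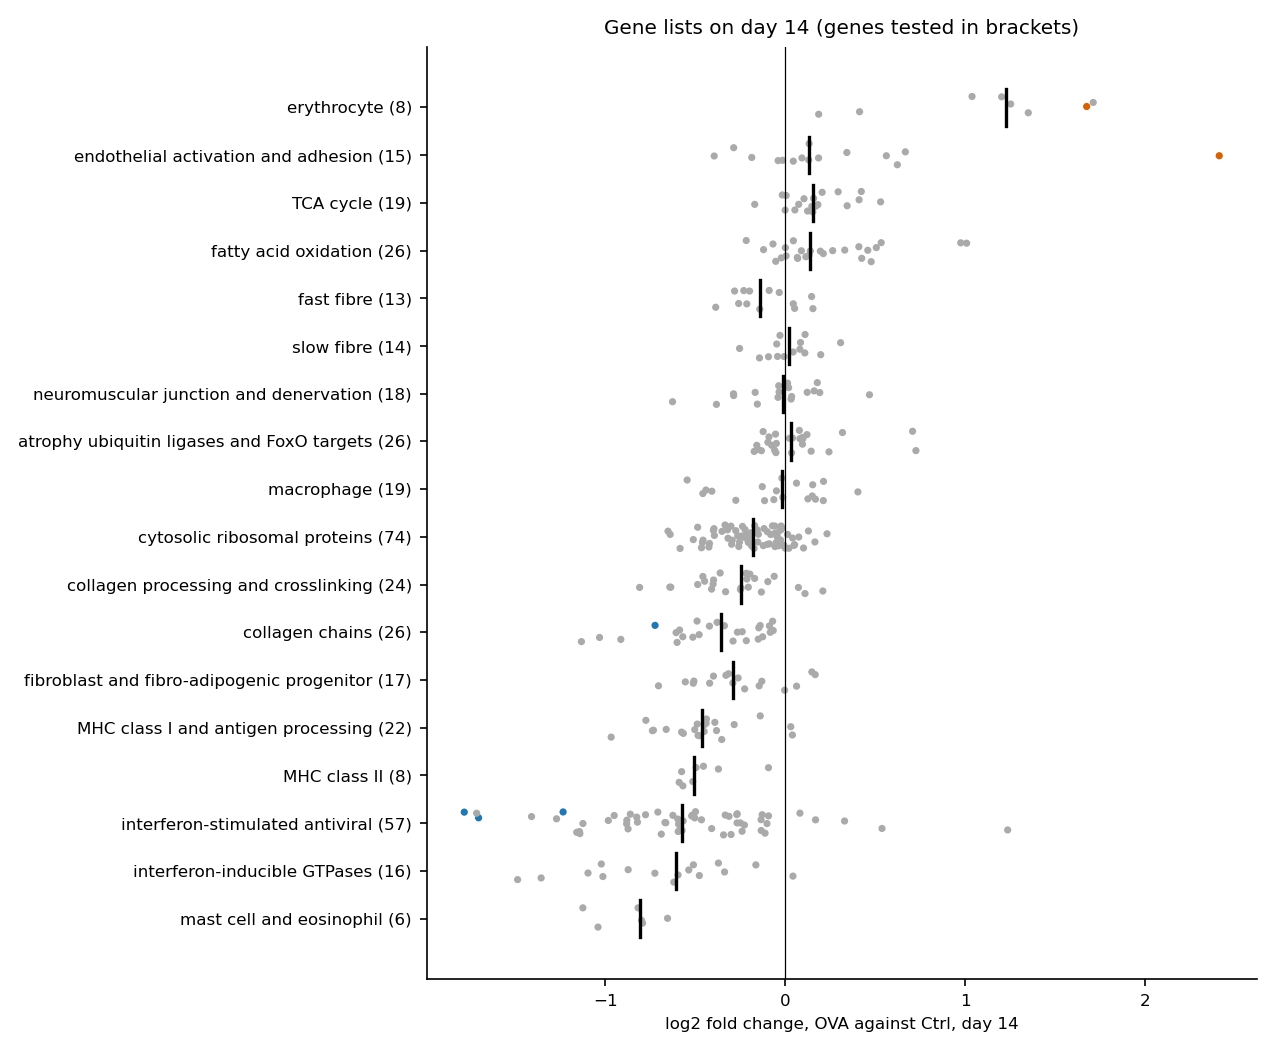
Each dot is a tested gene of 1 of 18 lists, placed by its log2 difference between OVA-immunized and Ctrl mice on day 14; the black tick is the list's median, the number tested is in brackets, and called genes are orange (higher) or blue (lower). Medians lie at 1.23 in the erythrocyte list, -0.57 in the antiviral and -0.81 in the mast cell and eosinophil list, and are -0.14 and 0.02 in the fast and slow fibre lists.

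On day 40 no gene passed in OVA-immunized against unimmunized mice (0 of 11236 tested; limma, smallest adjusted p = 0.702), and 387 genes had an unadjusted p under 0.05 (1.51% higher and 1.93% lower). Of the 26 genes called on day 14, 19 were expressed highly enough to be tested on day 40. In the rising set 8 of 10 genes were again higher, and in the falling set 2 of 9 were again lower. Ngp was at 0.0419, 0.0775, 0.129, 0.265 and 0.284 RPKM in Ctrl and 0.199, 1.82, 0.632, 1.14 and 1.29 RPKM in OVA-immunized mice on day 40, a difference of 1.96 ± 0.47 (SE; limma, adjusted p = 0.999). The immunized mice of day 40 lay under those of day 14 in every case for this gene, and 1 of them lay within the Ctrl range. S100A9 was at 2.69, 1.47, 3.99, 4.59 and 34.5 RPKM in Ctrl and 12.7, 19.7, 8.21, 14.9 and 12.5 RPKM in OVA-immunized mice (1.42, adjusted p = 0.999), and S100A8 at 1.12, 1.72, 1.66, 2.58 and 24.6 RPKM in Ctrl and 5.29, 6.82, 3.12, 8.81 and 6.10 RPKM in OVA-immunized mice (0.94, adjusted p = 0.999). One Ctrl mouse of day 40, replicate 5, stood apart in these genes and in IL1B, at 5.79 RPKM against 0.694 to 1.62 RPKM in its groupmates. Without it the differences were 2.12 for S100A9, 1.69 for S100A8, 1.75 for LCN2 and 2.13 for Ngp, and the smallest adjusted p over all genes was 0.870.

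The falling genes looked different on day 40. IFIT3 was at 13.9, 5.87, 6.02, 5.74 and 6.28 RPKM in Ctrl and 7.11, 7.39, 17.6, 5.71 and 6.94 RPKM in OVA-immunized mice, a log2 difference of 0.21 ± 0.31 (SE; limma, adjusted p = 0.999). COL5A3 was at 16.5 to 21.5 RPKM in Ctrl and 16.6 to 21.6 RPKM in OVA-immunized mice (0.06), and MMP2 at 43.8 to 50.7 and 45.7 to 53.5 RPKM (0.04). The difference for SOCS1 was 0.61 on the log2 scale (adjusted p = 0.999), opposite in sign to day 14, with 0.574 to 1.33 RPKM in Ctrl and 1.16 to 1.68 RPKM in OVA-immunized mice. The OVA-immunized mice of day 14 overlapped the unimmunized mice of day 40 in 8 of the 15 rising genes and in 5 of the 11 falling genes. For S100A8, S100A9 and CXCR2 the overlap came from Ctrl replicate 5 of day 40 alone, at 24.6, 34.5 and 1.56 RPKM. The lowest OVA-immunized mice of day 14 were at 22.5, 29.2 and 0.598 RPKM for these genes.

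The difference between the days was tested directly, as the OVA effect on day 14 minus that on day 40 in a model of all 30 mice. No gene of 11361 passed (limma, smallest adjusted p = 0.0678), and 1111 had an unadjusted p under 0.05. Of the 26 called genes, 24 had an unadjusted p under 0.05 for this difference, 13 of 15 in the rising set and 11 of 11 in the falling set; the day 14 effect that chose these genes is one of the 2 terms, so that this count is a description. S100A8 differed between days by 4.04 ± 0.86 (SE; adjusted p = 0.0678), Ngp by 3.07 ± 0.63 (SE; adjusted p = 0.0678), SELP by 1.87 ± 0.39 (SE; adjusted p = 0.0678) and SOCS1 by -1.89 ± 0.37 (SE; adjusted p = 0.0678) on the log2 scale. For the antiviral list the median was -0.57 on day 14 and 0.21 on day 40, when 48 of 57 genes were higher, and for the GTPases it was -0.61 and 0.42. The mast cell and eosinophil list was at -0.81 on day 14 and 0.36 on day 40. The unimmunized mice of the days can be set side by side as well: the 6 tested genes of the mast cell and eosinophil list summed to 56.8 to 117 RPKM in Ctrl of day 14, 34.4 to 50.4 RPKM in Ctrl of day 40 and 25.3 to 60.8 RPKM in OVA-immunized mice of day 14, with no overlap between the Ctrl groups, and the 26 collagen chains to 714.8 to 1939, 591.7 to 1085 and 620.2 to 928.7 RPKM, with overlap between all 3 groups.

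**Figure D5:**
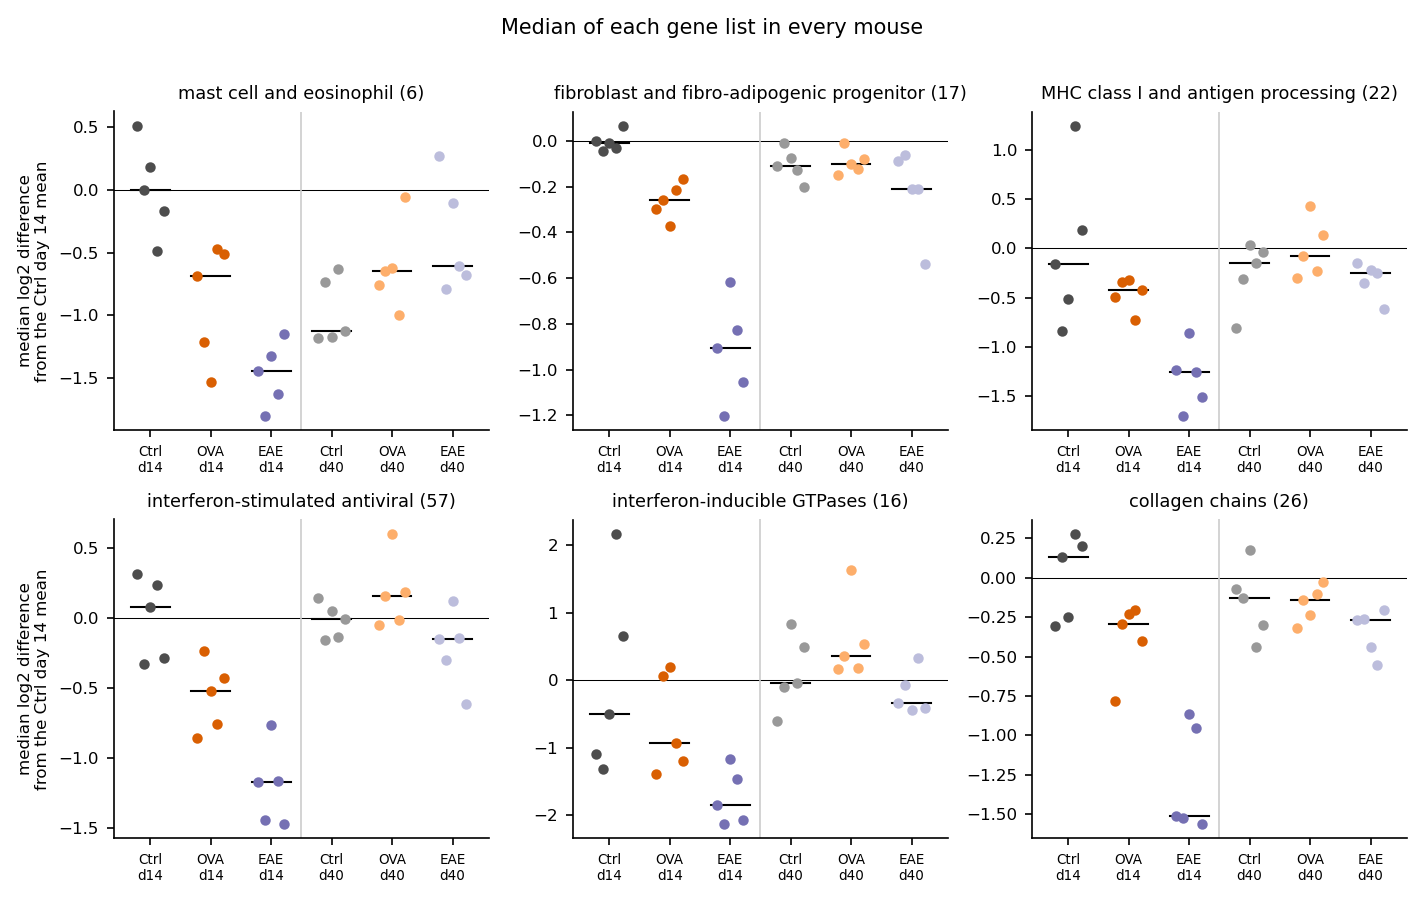
Each dot is a mouse, placed by the median over a list's tested genes of its log2 difference from the mean of the Ctrl mice of day 14, for 6 lists and the 6 groups of the series; bars are group medians. For the antiviral list the OVA-immunized mice of day 14 lie between -0.86 and -0.24, against -0.33 to 0.31 in the Ctrl mice of that day and -0.05 to 0.60 in the OVA-immunized mice of day 40.

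EAE-induced mice, which shared the adjuvant, the day and the controls, were set beside the OVA-immunized ones for the called genes; 23 of the 26 were tested in EAE-induced against OVA-immunized mice, a contrast in which 9.76% of 11083 genes were called higher and 9.64% lower. Among the rising genes, S100A8 was called higher in EAE-induced mice, at 335, 334, 130.1, 168 and 156 RPKM in EAE-induced mice, a log2 difference of 2.31 ± 0.36 (SE; limma, adjusted p = 0.000155) from OVA-immunized mice, while its partner S100A9 was at 45.6, 13.8, 57.2, 29.3 and 34.7 RPKM, -0.96 ± 0.39 (SE; adjusted p = 0.0678). The order of the pair was opposite in these groups: S100A9 was above S100A8 in every OVA-immunized mouse and S100A8 above S100A9 in every EAE-induced mouse, on the RPKM scale. The erythrocyte genes summed to 92.0 to 298.2 RPKM in EAE-induced mice against 652.1 to 2073.8 RPKM in OVA-immunized mice. Ngp, CAMP, LTF, LCN2 and SELP had adjusted p-values of 0.0975, 0.0984, 0.141, 0.410 and 0.0619, which does not show that the groups were alike. Of the falling genes, IFIT3 (-1.01), Ifit3b (-0.98) and COL5A3 (-1.08) were called lower still in EAE-induced mice (adjusted p = 0.0277, 0.0144 and 2.89e-05), and Rnase2a had no read in any of them. MMP2 (-0.47, adjusted p = 0.00780) was lower and Zfp579 (0.41, adjusted p = 0.00703) higher than in OVA-immunized mice by less than the fold threshold. SOCS1, ADAM33 and PLA2G2D did not pass (adjusted p = 0.166, 0.240 and 0.486).

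Of the 15 rising genes, 10 (among them Ngp, S100A8, S100A9, CAMP, LTF, LCN2, CXCR2, SELP and Chil3) kept their call whichever of the 10 mice was left out, whereas 0 of the 11 falling genes did. The call was lost in 1 such fit for Zfp579 and MX2, 2 for Ifit3b, 6 for Rcor2, 7 for IFIT3 and Rnase2a, 8 for SOCS1 and COL5A3 and 9 for MMP2, ADAM33 and PLA2G2D, and among the rising genes in 1 for MCEMP1, 6 for Retnlg and 7 for IL1B; MX2, Rcor2 and MCEMP1 were under the filter in 1 further fit. Log2 differences are on the log2(RPKM + 0.1) scale, which understates the change of genes near 0, and 6 of the rising and 5 of the falling genes had a mean of at most 3 RPKM in both groups.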

How the data were processed

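RNA was extracted from whole EDL muscle, and poly(A)-selected, strand-specific libraries were sequenced as paired reads. The authors aligned reads to mm10 with Subread, counted them on RefSeq genes with featureCounts and deposited log2 values, log2(RPKM + 1), with 0.0001 standing for no read; counts are not used here, so that no count model was run. The log2 scale was checked from single-read steps, which came out whole within 0.05 for 92.0% of 7962 low values. The same steps gave the read totals.

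RPKM was restored from the deposited values. Genes with a mean of at least 1 RPKM in a compared group were tested with limma 3.58.1 (R 4.3.3; lmFit, eBayes with a trend) after adding 0.1 RPKM and taking log2; a single model held all 15 mice taken on the same day, or all 30 mice for the difference between days. A gene was called at a Benjamini-Hochberg adjusted p under 0.05 and a fold above 1.5. Named genes were the called genes, the 10 non-overlapping genes with the largest differences in each direction, the 4 smallest p-values and the defining markers of each list, and close paralogs. The members and gene lists were chosen with earlier results of these data known, so list counts are descriptions. The fit was tested on simulated data. Other pseudocounts, filters, scalings, variance models and sets of mice were tried, including each mouse left out. Gene positions are from GENCODE vM21 (GRCm38) and promoters from RefSeq. One of the genes called higher is counted but not reported here.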

Additional observations from a re-analysis of the deposited data

Results flagged for a closer look

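A single mouse far from its groupmates was flagged in 10 of the 104 groups of 5 mice examined for the 26 called genes (Dixon's test), where chance flags about 1 in 20 groups. No cause is weighed for any of them.

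IFIT3 was flagged in 3 groups: OVA-immunized replicate 5 of day 14 at 3.88 RPKM (the others 2.37 to 2.69), Ctrl replicate 1 of day 40 at 13.9 RPKM (5.74 to 6.28) and OVA-immunized replicate 3 of day 40 at 17.6 RPKM (5.71 to 7.39). MX2 was flagged in Ctrl replicate 1 of day 14 at 1.69 RPKM (0.838 to 1.00), in OVA-immunized replicate 4 of day 14 at 0.263 RPKM (0.394 to 0.451) and in OVA-immunized replicate 3 of day 40 at 1.74 RPKM (0.895 to 1.06). The mouse that stood out for IFIT3 on day 40 in the OVA-immunized group was thus also the one that stood out for MX2. TIMP4 was flagged in OVA-immunized replicate 1 of day 14 at 21.2 RPKM (8.40 to 10.3), and without that mouse its day 14 difference stayed in the same direction. Zfp579 was flagged in Ctrl replicate 2 of day 40 at 7.49 RPKM (4.66 to 5.33). Ctrl replicate 5 of day 40 was flagged for S100A8 at 24.6 RPKM (1.12 to 2.58) and for CXCR2 at 1.56 RPKM (0.0296 to 0.144).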

How the results depend on the processing

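In all 26 called genes the groups of day 14 do not overlap, so leaving out a mouse or changing the pseudocount cannot change the sign. None of these genes changed the sign of its day 14 log2 difference under any alternative run. List medians did, in 74 of 767 values and 22 lists. The platelet median went from 0.87 over its 2 tested genes, PPBP and PF4, to -0.37 with the filter above 3 RPKM, which leaves only PF4. That is a change of the genes tested, and PPBP had passed the 1 RPKM filter only through the immunized group. The other 21 lists had medians between -0.11 and 0.07. More genes were called lower than higher with median-of-ratios scaling, with all 30 mice, without a trend (19 against 17) and without Ctrl replicate 2 (13 against 11). With quantile normalization the counts were equal, at 22 each. The 15 genes called higher on day 14 became 8 with the filter above 3 RPKM, 23 with no filter and 24 with all 30 mice in 1 model, and 10 to 15 with each mouse left out. The 11 called lower became 4 with the filter above 3 RPKM, 19 with median-of-ratios scaling, 22 with quantile normalization, 19 without a trend, 1 with only the 10 compared mice and 51 with all 30 mice, and 2 to 13 with each mouse left out: 2 without Ctrl replicate 1 or OVA-immunized replicate 4, 3 without OVA-immunized replicate 2, 4 without OVA-immunized replicate 3 or Ctrl replicate 4, 5 without OVA-immunized replicate 1, 6 without Ctrl replicate 3 or 5, 7 without OVA-immunized replicate 5 and 13 without Ctrl replicate 2. Of the called genes, 11 of 15 and 1 of 11 kept their call with only the 10 compared mice, and 13 of 15 and 11 of 11 with all 30. Day 40 stayed at 0 except for 2 lower genes with only the compared mice. The difference between days, 0 in the main analysis, gave 3 higher and 3 lower with a pseudocount of 1 RPKM, 1 and 2 with 0.5 RPKM, 3 and 4 with median-of-ratios scaling, 5 and 4 with quantile normalization, and 0 to 1 higher and 0 to 3 lower with each mouse left out.

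The labels do not say whether replicate numbers pair the mice. Same-numbered Ctrl and OVA-immunized mice had correlations of their deviations of 0.55, -0.24, 0.08, 0.06 and -0.68. Differently numbered mice reached similar sizes, with 0.71 for Ctrl replicate 5 and -0.61 for Ctrl replicate 1, each with OVA-immunized replicate 2. These values therefore cannot decide whether the mice were paired. With the replicate block, 13 genes were called higher and 11 lower on day 14, of which 12 and 6 were among those named, 0 and 0 on day 40, and 1 and 0 for the difference between days. Of 558 values for single genes under an alternative, 132 lost their call. List medians with each mouse left out were added after seeing the data. The cause of these shifts was not tested, and depth limits genes under 1 RPKM.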
